A study of Mus musculus with 140 samples.

Results

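The genes described here code for the nuclear-encoded subunits of respiratory complexes II, III and IV, for ATP synthase (complex V) and for cytochrome c. Members were taken by symbol alone: Sdha, Sdhb, Sdhc, Sdhd, Cyc1 and Cycs, and every symbol that starts with Uqcr, Cox4, Cox5, Cox6, Cox7, Cox8 or Atp5. The rule took 44 of 12176 rows in the PerDKO table, 42 of 11608 in the BMALKO table and 45 of 11727 in the WT table, which made 48 genes of 12811 in all. By complex these were 4 genes of complex II, 9 of complex III, 15 of complex IV, 17 of complex V, Cycs, and 2 genes that are not subunits of these complexes. The last pair, Dmac2 and Dmac2l, came in under their older symbols Atp5sl and Atp5s.

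The study followed liver transcripts of male mice, 3 months old, on a C57BL/6 background, which were kept in constant darkness with free access to food. PerDKO livers came from Per1,2-/- mice, which lack the clock repressors PER1 and PER2, and BMALKO livers from Bmal1-/- mice (B6.129-Arntl tm1Bra/J), which lack the clock activator BMAL1 (gene Arntl). WT livers came from wild-type C57BL/6 mice. For BMALKO mice a further label speaks of light and dark cycles, so their lighting is not certain. Livers were taken every 4 h over 12 time points of circadian time, CT0 to CT44, with 46 PerDKO, 46 BMALKO and 48 WT libraries, which is 4 per time point, or 3 at PerDKO CT8 and CT20 and at BMALKO CT16 and CT20. Both knockouts are whole-body deletions, so the liver was not the only tissue without the gene. Each genotype was deposited as a table of its own, so genotype and anything else that differs between the tables cannot be told apart.

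Libraries held 1442278 to 5643470 counted molecules in PerDKO, 1924755 to 5325256 in BMALKO and 1678097 to 4364594 in WT. The tissue carried its markers: the summed level of 10 hepatocyte genes had a median of 85409 counts per 1000000 (CPM) in PerDKO, 52049 CPM in BMALKO and 76767 CPM in WT livers. Arntl, the gene disrupted in BMALKO mice, had a median of 8.43 CPM in BMALKO livers (4.86 to 15.2), against 11.1 CPM in WT livers (0.675 to 34.5), where it swings with the clock. Per1 and Per2 tags also remained in PerDKO livers, at medians of 10.0 and 19.7 CPM, against 17.1 and 12.2 CPM in WT livers. Where the counted 3′ tags lie relative to the deleted parts was not established here, so these levels check nothing about the deletions. In the BMALKO group the libraries CT40 D and CT44 D stood apart, with albumin (Alb) at 2656 and 3232 CPM, against a median of 16789 CPM in the other BMALKO libraries. The BMALKO library CT24 A held 110 CPM of Ucp1, the uncoupling protein of brown fat, against at most 0.306 CPM in any other BMALKO library.

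The respiratory chain passes electrons to oxygen and uses the energy released to pump protons across the inner mitochondrial membrane. Complex II, succinate dehydrogenase, feeds electrons from the citric acid cycle into ubiquinone, complex III passes them to cytochrome c, and complex IV, cytochrome c oxidase, reduces oxygen. ATP synthase lets the protons back through a rotating ring and makes ATP. Hepatocytes draw on this chain for gluconeogenesis, urea synthesis and lipid metabolism. All subunits of complex II are coded in the nucleus, whereas the catalytic core of complex IV and parts of complexes III and V are coded in mitochondrial DNA, whose genes were not analysed here. Promoters of nuclear respiratory genes are known for sites of NRF1, of the ETS factor GABP (also called NRF2) and of YY1.

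Promoter windows of RefSeq (mouse build GRCm38.p6, 250 bases before to 50 bases after the start) were at hand for 38 members and 27025 genes in all. The 4 stretches printed here are the last 110 bases before the start. They belong to a member each of complexes II and IV and to the small subunits Uqcr10 and Uqcr11 of complex III. These had the smallest p-values of drift within their complexes in PerDKO livers, the change on which the results below turn. Sdha, Cox5a and Atp5d were also picked by their p-values of drift, but their stretches held none of the matches marked here and are not printed. Atp5a1 of complex V was picked in the same way and its stretch is not given either, so none stands for complex V. Capitals mark matches, on either strand, to the NRF1 core GCGCATGC, the ETS site CCGGAAG or the CCAAT box. Sdhb lies at chr4:140961161-140961270 on the plus strand, and Uqcr10, Uqcr11 and Cox6b1 are on the minus strand at chr11:4704345-4704454, chr10:80406822-80406931 and chr7:30626115-30626224.
Sdhb: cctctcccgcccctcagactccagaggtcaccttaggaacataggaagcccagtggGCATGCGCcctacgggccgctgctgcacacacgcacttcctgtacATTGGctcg
Uqcr10: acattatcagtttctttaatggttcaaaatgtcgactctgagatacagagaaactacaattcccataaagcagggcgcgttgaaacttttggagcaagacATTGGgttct
Uqcr11: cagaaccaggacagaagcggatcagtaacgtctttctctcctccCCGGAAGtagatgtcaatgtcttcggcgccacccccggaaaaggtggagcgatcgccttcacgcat
Cox6b1: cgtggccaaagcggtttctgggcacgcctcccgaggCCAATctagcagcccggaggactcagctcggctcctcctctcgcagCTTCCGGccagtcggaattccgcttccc

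The NRF1 core was found, on either strand, in 21.1% of the members' windows, in 2.78% of all windows and in 5.68% of the windows of genes that were tested. The ETS site was found in 34.2% of the members' windows, in 9.08% of all and in 20.1% of tested genes. The YY1 core AAGATGGC stood in 10.5% of the members' windows, 2.86% of all and 5.35% of tested genes, and the CCAAT box in 57.9%, 37.8% and 38.4% in the same order. Of the clock elements, the E-box CACGTG was in 13.2% of the members' windows, against 7.09% of all and 10.8% of tested genes, and the D-box TTATGTAA was in 2.63%, against 0.966% and 0.464%. The ERR site TCAAGGTCA stood in 5.26% of the members' windows, 0.407% of all and 0.253% of tested genes. The members' shares for the ERR site and the D-box rest on 2 windows and 1 window of 38. No motif contains another, and 19 of the 38 windows held at least 1 NRF1, ETS or YY1 match. A match describes the letters only.

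Of the 48 genes, 43 had at least 1 count in every library of all 3 genotypes, the filter used for the tests, as did 8801 genes in all. These 43 were the 4 genes of complex II, 8 of complex III, 12 of complex IV, 17 of complex V and the 2 others. Uqcrq, a small subunit of complex III, was abundant in PerDKO and WT livers and not analysed here in BMALKO livers, and is described with those 2 genotypes alone. The other 4 untested members were tissue isoforms or low. Cycs, cytochrome c, was listed for WT livers only, at 0 to 6 counts, Cox6a2, the heart and muscle isoform of COX6A, for PerDKO only, at 0 to 16 counts, and Cox6b2, the testis isoform of COX6B, at 0 to 12 counts in PerDKO and 0 to 9 counts in WT livers. Cox8b, the muscle and brown fat isoform of COX8, had 0 counts in 26 of 46 BMALKO libraries and in 35 of 48 WT libraries. For 8 members RefSeq lists pseudogenes by name (Atp5c1, Atp5k, Atp5l, Atp5pb, Cox5b, Cox7c, Cycs and Uqcrh), and their counts are uncertain where reads are shared with these copies.

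To ask whether the transcripts moved over the 2 days in darkness, a slope was fitted beside 24-hour and 16-hour rhythms, as log2 change per 24 h. In PerDKO livers 25 of the 43 members rose over the 48 h and none fell, by edgeR's quasi-likelihood test at a Benjamini-Hochberg adjusted p below 0.05. Of all genes tested, 20.4% were called in that test, 10.5% as higher and 9.86% as lower. The members' median slope was 0.16, against -0.015 over all genes, and 37 of the 43 slopes were above 0. The risen members were 3 of 4 in complex II, 4 of 8 in complex III, 6 of 12 in complex IV and 12 of 17 in complex V, and neither Dmac2 nor Dmac2l. The median slope of the tested members was 0.19 in complex II, 0.16 in complex III, 0.15 in complex IV and 0.18 in complex V. With each of the letters A to D left out in turn, 16 to 26 members were called, and 15 were called every time. The count of 16 came without letter C, where the count over all genes was 954, against 1796 with it.

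In complex II, Sdhb, the iron-sulfur subunit, and Sdha, the flavin-bearing catalytic subunit, rose in PerDKO livers. Sdhb had a median of 787 CPM on day 2 (CT24 to CT44, 564 to 963, n = 24) and 617 CPM on day 1 (CT0 to CT20, 495 to 831, n = 22). The time point with its highest mean was CT40, at 946, 869, 753 and 874 CPM, and the lowest was CT4, at 572, 532, 544 and 631 CPM. The ranges of the 2 days overlapped, as they did for all 25 risen members. Here and below, the time points given by library are those with the highest and the lowest mean of the 12, so a gap between them is a description and supports nothing. The slope of Sdhb was 0.26 ± 0.04 (SE, adjusted p = 4.4e-06 by edgeR's quasi-likelihood test). Sdha had a median of 337 CPM on day 2 (254 to 393) and 273 CPM on day 1 (218 to 350), and a slope of 0.21 ± 0.04 (adjusted p = 1.4e-05). Its 4 libraries at CT36 held 365, 370, 393 and 316 CPM, and those at CT16 held 273, 308, 248 and 218 CPM. Of the membrane anchors, Sdhd rose with a slope of 0.16 ± 0.06 (adjusted p = 0.029), and Sdhc did not pass, at 0.03 ± 0.04 (adjusted p = 0.68).

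In complex III the small subunits Uqcr10 and Uqcr11 had the smallest p-values. Uqcr10 had a median of 521 CPM on day 2 (438 to 625), against 444 CPM on day 1 (348 to 532), and a slope of 0.29 ± 0.04 (adjusted p = 9.5e-08, edgeR). Its libraries held 494, 571, 618 and 625 CPM at CT44 and 348, 423, 434 and 447 CPM at CT12, its time points of highest and lowest mean. Uqcr11 had a median of 901 CPM on day 2 (691 to 1146) and 715 CPM on day 1 (512 to 869), and a slope of 0.31 ± 0.05 (adjusted p = 1.6e-07). At CT44 it stood at 908, 999, 1102 and 927 CPM, and at CT4, its lowest time point, at 723, 689, 512 and 803 CPM. Cyc1, the haem-bearing cytochrome c1 that hands electrons to cytochrome c, rose at 0.15 ± 0.04 (adjusted p = 0.0079), as did the core protein gene Uqcrc1 at 0.18 ± 0.06 (adjusted p = 0.032). Its partner Uqcrc2 had a slope of -0.09 ± 0.06 (adjusted p = 0.28), and the Rieske iron-sulfur protein gene Uqcrfs1 one of 0.07 ± 0.04 (adjusted p = 0.13). In the fit of PerDKO and WT alone, Uqcrq rose in PerDKO livers at 0.15 ± 0.05 (adjusted p = 0.012).

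In complex IV the risen genes were Cox6b1, Cox5a, Cox6a1, Cox5b, Cox4i1 and Cox6c, and no Cox7 or Cox8 gene passed. Cox6b1, a subunit on the side of the membrane that faces cytochrome c, had a median of 677 CPM on day 2 (542 to 760) and 569 CPM on day 1 (451 to 716), with a slope of 0.21 ± 0.04 (adjusted p = 1.8e-05, edgeR). It held 691, 760, 679 and 644 CPM at CT36 and 486, 620, 569 and 498 CPM at CT16. Cox5a had a slope of 0.22 ± 0.05 (adjusted p = 0.00014) and held 603, 682, 735 and 568 CPM at CT36, against 428, 422, 418 and 467 CPM at CT0. Slopes of the other risen genes lay between 0.13 ± 0.04 for Cox4i1, the COX4 isoform of most tissues, and 0.19 ± 0.04 for Cox5b. Among the genes that did not pass, Cox7c had a slope of 0.14 ± 0.05 (adjusted p = 0.061) and Cox8a one of 0.15 ± 0.06 (adjusted p = 0.076), while Cox7a2 stood at -0.07 ± 0.11 and Cox7a2l, whose protein takes part in supercomplexes of complexes III and IV, at -0.11 ± 0.08.

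In ATP synthase all 5 genes of the catalytic head rose in PerDKO livers: Atp5a1 (alpha), Atp5b (beta), Atp5c1 (gamma), Atp5d (delta) and Atp5e (epsilon). Atp5a1 had a median of 1141 CPM on day 2 (948 to 1315) and 980 CPM on day 1 (778 to 1206), and a slope of 0.19 ± 0.03 (adjusted p = 7.6e-07, edgeR). It held 1123, 1194, 1315 and 1279 CPM at CT44 and 1017, 963, 861 and 778 CPM at CT16. Atp5d had a slope of 0.18 ± 0.04 (adjusted p = 6.2e-05), with 1092, 1024, 964 and 1039 CPM at CT40 and 822, 805, 752 and 808 CPM at CT0. Of the 3 genes that code for the same proton-carrying ring protein, Atp5g3 rose at 0.21 ± 0.04 (adjusted p = 7.2e-05), and Atp5g1 and Atp5g2 stood at 0.09 ± 0.06 (adjusted p = 0.27) and 0.11 ± 0.20 (adjusted p = 0.75). In the stator, the stalk that holds the head still, Atp5pb, Atp5h and Atp5o rose with slopes of 0.15, 0.12 and 0.15, and Atp5j did not pass at 0.17 ± 0.07 (adjusted p = 0.090). Of the small membrane subunits, Atp5k (subunit e) rose at 0.32 ± 0.06, Atp5j2 (subunit f) at 0.25 ± 0.05 and Atp5md at 0.32 ± 0.10, while Atp5l (subunit g), at about 14 CPM, stood at -0.01 ± 0.08.

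**Figure D1:**
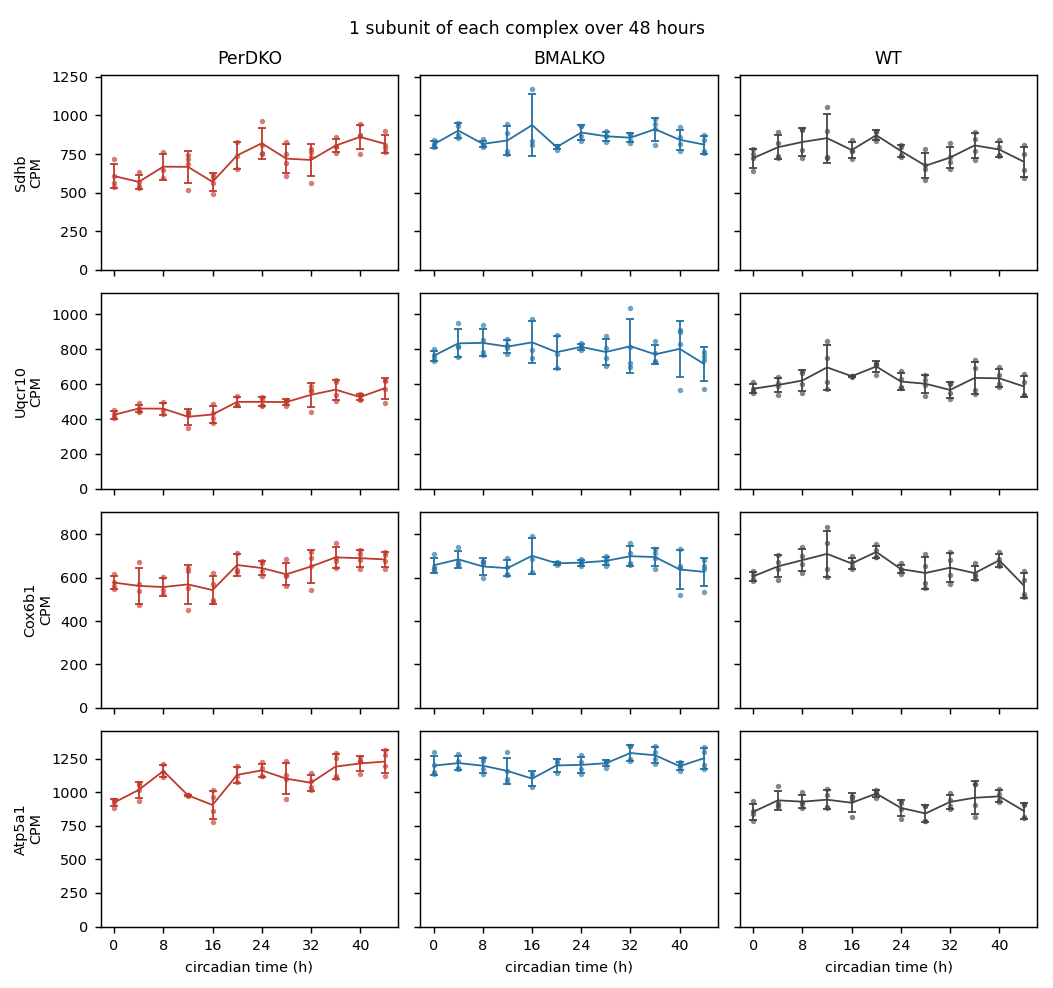
CPM (y axis) against circadian time in hours (x axis) for Sdhb, Uqcr10, Cox6b1 and Atp5a1, a subunit each of complexes II, III, IV and V, in PerDKO, BMALKO and WT livers. Points are libraries, and the line and bars are the mean ± SD of each time point. In PerDKO livers the day 2 medians exceed those of day 1 in all 4 genes (787 against 617 CPM for Sdhb), whereas no slope of these genes passed the test in BMALKO or WT livers.

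Summed over its tested subunits, complex II stood at 1820 ± 138 CPM on day 2 and 1580 ± 155 CPM on day 1 in PerDKO livers (SD, n = 24 and 22). The sums of complex III were 3253 ± 251 and 2855 ± 230 CPM, those of complex IV 7210 ± 549 and 6503 ± 475 CPM, and those of complex V 9757 ± 717 and 8568 ± 725 CPM, again with day 2 ahead of day 1. In BMALKO livers the sum of complex V was 11181 ± 649 CPM on day 2 and 11004 ± 520 CPM on day 1, and in WT livers 9975 ± 750 and 10331 ± 752 CPM. The day means thus lay more than 1 SD apart in PerDKO livers for all 4 complexes. For complex V they lay less than 1 SD apart in the other 2 genotypes. Unlike the slopes, day means and medians were not adjusted for rhythms, and a 16-hour rhythm does not fall evenly on days of 24 h. Counted molecules per library did not move along: their medians in PerDKO were 3687565 on day 2 and 3719788 on day 1.

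Markers of other cells changed in the same PerDKO libraries. Alas2, the haem synthesis gene of red cell precursors and the 1 gene of 5 on that list with a row in all tables, had a median of 155 CPM on day 2 (100 to 205) and 77.7 CPM on day 1 (17.5 to 123). The summed level of 6 of 7 stellate cell and fibroblast genes was 125 CPM on day 2 (74.9 to 171) and 197 CPM on day 1 (102 to 320), and that of 8 macrophage genes 391.9 CPM (275 to 1226) and 478 CPM (307 to 890). The 8 endothelial genes summed to 148 and 146 CPM, and the 10 hepatocyte genes to 87411 and 84839 CPM. No list had a gene at 0 in all libraries. The part of these shifts in the members' slopes was not tested. In bulk liver, fewer cells of a type and less RNA per cell cannot be told apart.

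In WT livers 1 of the 43 members passed the drift test, where 0.989% of all genes did, 0.477% as higher and 0.511% as lower. Cox8a, the COX8 isoform of most tissues, fell by 0.23 per 24 h on the log2 scale (SE 0.06, adjusted p = 0.045 by edgeR), with a median of 258 CPM on day 2 and 289 CPM on day 1. It held 226, 237, 217 and 240 CPM at CT44 and 326, 324, 243 and 344 CPM at CT12. This call was lost without the WT libraries CT44 A and CT44 C, at a slope of -0.21, and also without letter A, B or D. Beyond Cox8a, 8 further members had an unadjusted p below 0.05, among them Sdhc at -0.13 ± 0.04 (adjusted p = 0.084), Uqcrc1 at -0.18 ± 0.06 (adjusted p = 0.12), Atp5g1 at -0.16 ± 0.06 (adjusted p = 0.13) and Cox5b at -0.12 ± 0.04 (adjusted p = 0.15). An unadjusted p below 0.05 was found in 1358 of all 8801 genes in the same test. In all, 30 of the 43 WT slopes were below 0, with a median of -0.05, against 0.0049 over all genes.

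Sdhc in WT livers held 507, 598, 545 and 532 CPM at its highest time point, CT20, and 440, 446, 422 and 353 CPM at its lowest, CT28. Uqcrc1 held 307, 330, 325 and 351 CPM at CT12 and 222, 270, 225 and 268 CPM at CT24. In both genes the highest and the lowest time point did not overlap, whereas the ranges of the 2 days did. Atp5g1 ran at 369, 515, 397 and 540 CPM at CT12 and at 388, 377, 368 and 283 CPM at CT40, so that CT12 A fell among the CT40 libraries.

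In BMALKO livers none of the 43 members passed the drift test, and 0.0227% of all genes did. At an unadjusted p below 0.05 there were 8 members by edgeR, all with positive slopes, and 824 of all 8801 genes. DESeq2 called 0 members after adjustment. The smallest p-values were those of Sdha (0.12 ± 0.04, adjusted p = 0.31), Uqcrfs1 (0.11 ± 0.04, adjusted p = 0.31), Atp5g3 (0.12 ± 0.04, adjusted p = 0.33) and Atp5a1 (0.09 ± 0.03, adjusted p = 0.35), all in edgeR's fit. In complex IV the smallest were Cox5a (0.11 ± 0.05) and Cox6a1 (0.06 ± 0.03). Sdha held 377, 415, 341 and 427 CPM at CT44 and 315, 285 and 346 CPM at CT16, where 1 library of CT44 fell within the range of CT16. Atp5a1 held 1248, 1340, 1347 and 1230 CPM at CT32 and 1144, 1036 and 1123 CPM at CT16.

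**Figure D2:**
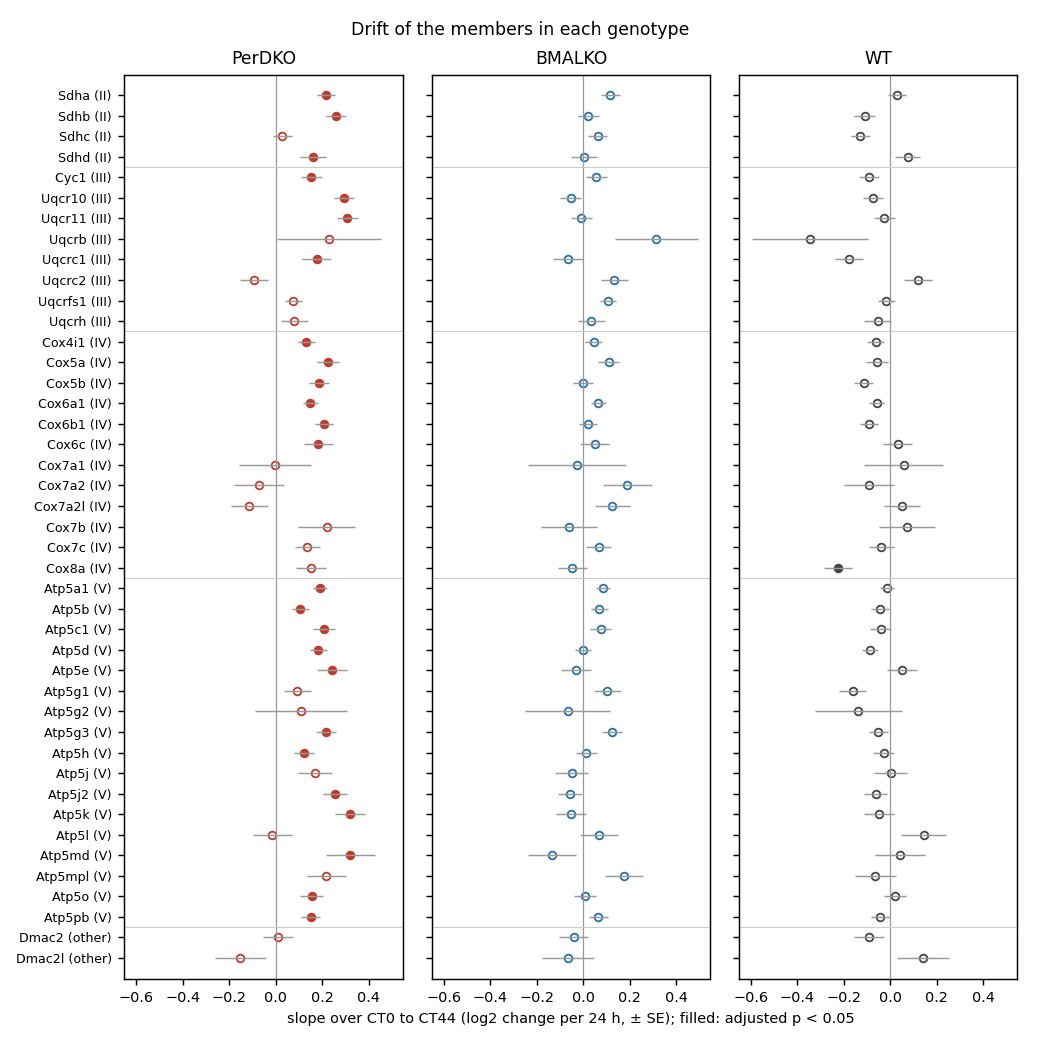
Slope over CT0 to CT44 (x axis, log2 change per 24 h, ± SE) of the 43 tested members (rows, by complex) in PerDKO, BMALKO and WT livers. Filled points passed edgeR's test at an adjusted p below 0.05: 25 members in PerDKO, all right of 0, none in BMALKO, and Cox8a in WT, left of 0.

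Slopes were also compared between genotypes. The PerDKO slope exceeded the WT slope in 22 of the 43 members and fell short in none (edgeR, adjusted p below 0.05), where 14.8% of all genes were called, 7.54% as higher and 7.28% as lower. These 22 were 3 members of complex II, 4 of complex III, 6 of complex IV and 9 of complex V. The difference was 0.37 ± 0.06 for Sdhb (adjusted p = 9.2e-06), 0.37 ± 0.06 for Uqcr10 (adjusted p = 5.8e-06), 0.30 ± 0.05 for Cox6b1 (adjusted p = 2.7e-05) and 0.27 ± 0.05 for Atp5d (adjusted p = 4.5e-05), in log2 per 24 h. With a letter left out, 17 to 21 members were called. Between BMALKO and WT slopes no member differed by this test, where 0.0909% of all genes were called (0.0227% as higher and 0.0682% as lower). At an unadjusted p below 0.05 there were 15 members and 736 of all 8801 genes, and DESeq2 called 0 members. The PerDKO and BMALKO comparisons share the WT libraries.

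Related gene lists were counted in the same test of PerDKO livers, where 10.5% of all genes were called as higher and 9.86% as lower. In complex I, all 42 tested Nduf genes had a positive slope and 24 rose, with a median of 0.15, and none fell. Of 66 genes of the mitochondrial ribosome, which translates the subunits coded in mitochondrial DNA, 22 rose and 1 fell, with a median of 0.10. Among 29 assembly factors of complexes II to V, 7 rose and 1 fell. The risen ones included Cox19, a copper-pathway factor of complex IV, at 0.35 ± 0.05 (adjusted p = 2.6e-07), Uqcc2, a factor of complex III, at 0.26 ± 0.05 (adjusted p = 7.1e-05), and Tmem70, needed for ATP synthase, at 0.20 ± 0.05 (adjusted p = 0.0027), while Coa7 fell at -0.44 ± 0.14 (adjusted p = 0.018). Of 12 regulators of respiratory genes, none rose and 1 fell: Ppargc1b, a coactivator of mitochondrial gene expression, at -0.42 ± 0.11 (adjusted p = 0.0020). Nrf1, at -0.20 ± 0.09 (adjusted p = 0.11), Gabpa, at -0.03 ± 0.07 (adjusted p = 0.80), and Esrra, at 0.12 ± 0.06 (adjusted p = 0.14), did not pass.

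Rhythms were tested with JTK_CYCLE, a rank test for a fixed period, at q below 0.2 over all genes with a count in every library of WT and the knockout in question. In WT livers 14 of 44 members were called for a 24-hour rhythm, against 48.6% of all genes. The called members were 1 of 4 in complex II, 4 of 9 in complex III, 2 of 12 in complex IV, 6 of 17 in complex V, and Dmac2. Their swings were small: the fold between peak and trough of a cosine fit had a median of 1.17 in these 14, and of 1.39 in all called genes. Of the 14, 13 peaked in the subjective night, at or after 12 h of circadian time, as did 2242 of the 4497 called genes. Of the 44, 9 had an unadjusted p below 0.05, as did 3926 of all 9258 genes. Left out in turn, the letters gave 6 to 9 called members, and no member was called every time. The lowest count, 6, came without letter D.

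In complex IV the smallest q was that of Cox5a, whose 4 WT libraries held 800, 796, 796 and 761 CPM at CT20, and 514, 530, 552 and 471 CPM at CT36. All 4 CT20 libraries lay above every other WT library, of which the highest was CT4 B at 752 CPM. Its fit had a fold of 1.18 and a peak at 19.9 h (q = 0.033). Sdhd, a membrane anchor of complex II, was at 384, 271, 390 and 373 CPM at CT20 and 246, 214, 261 and 317 CPM at CT8 (fold 1.18, peak 19.1 h, q = 0.035), and its lowest CT20 library fell among those of CT8. Sdhc had the next smallest p in complex II and was not called (q = 0.80).

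In complex III, Cyc1 held 472, 551, 497 and 510 CPM at CT20 and 371, 353, 353 and 342 CPM at CT28, and its fit had a fold of 1.23 with a peak at 14.2 h (q = 0.017). Uqcrfs1 held 562, 624, 628 and 583 CPM at CT0 and 492, 438, 498 and 532 CPM at CT8 (fold 1.11, peak 20.1 h, q = 0.042). Uqcrb, at 0.370 to 6.71 CPM in WT livers, was called with a fold of 1.55 (q = 0.060), a swing of few counts. In complex V, Atp5h, the stator subunit d, held 565, 543, 557 and 564 CPM at CT20 and 436, 397, 422 and 429 CPM at CT12 (fold 1.15, peak 20.2 h, q = 0.036). Atp5mpl, a small subunit of the membrane part, held 36.5, 47.3, 44.3 and 32.3 CPM at CT20 and 23.7, 24.4, 25.1 and 20.1 CPM at CT4 (fold 1.35, peak 19.7 h, q = 0.021). Cox7a1, the heart and muscle isoform of COX7A, held 12.9, 13.8, 11.3 and 13.4 CPM at CT20 and 6.34, 8.42, 6.75 and 11.7 CPM at CT12 (fold 1.28, q = 0.19). For Cyc1, Uqcrfs1, Atp5h and Atp5mpl the 4 libraries of the highest time point lay above those of the lowest, whereas those of Cox7a1 overlapped.

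**Figure D3:**
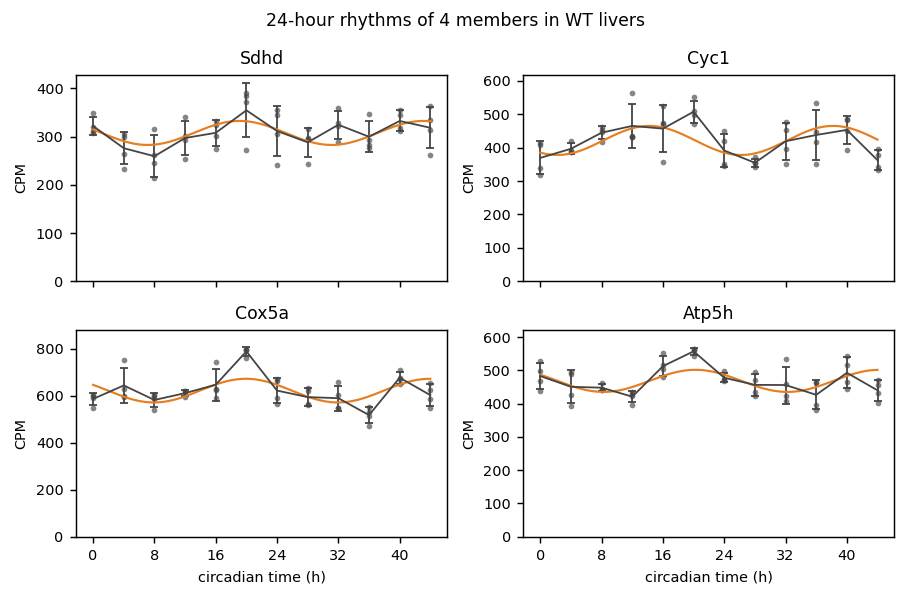
CPM (y axis) against circadian time in hours (x axis) in WT livers for Sdhd, Cyc1, Cox5a and Atp5h. Grey points are libraries, the dark line and bars the mean ± SD of each time point, and the orange curve the 24-hour cosine fit, with a fold of 1.18, 1.23, 1.18 and 1.15. The high mean at CT20 on day 1 is not matched by an equally high mean at CT44 on day 2.

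Of the related lists, the 24-hour test in WT livers called 14 of 42 Nduf genes, 33 of 67 mitochondrial ribosomal genes, 14 of 30 assembly factors and 6 of 12 regulators, against the 48.6% of all genes. Of the regulators, Ppargc1b had a fold of 3.42 with its peak at 9.0 h, and Esrra, an orphan nuclear receptor that acts with it, a fold of 1.88 with its peak at 13.6 h.

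In PerDKO livers 0 of 44 members were called for a 24-hour rhythm by JTK_CYCLE, against 0.0864% of all genes in that test. Harmonic regression also called 0 members, and its shares over all genes are not given here. By JTK_CYCLE 1 member had an unadjusted p below 0.05, as did 547 of all 9258 genes. In BMALKO livers 0 of 43 were called by either test, against 0.0112% of all genes by JTK_CYCLE. There 2 members had an unadjusted p below 0.05 by JTK_CYCLE, as did 275 of all 8921 genes. The difference in rhythm between genotypes was tested itself. By edgeR's quasi-likelihood test of the 24-hour terms, 7 of 43 members differed between PerDKO and WT, where 28.0% of all genes did, and 8 of 43 between BMALKO and WT, where 22.3% did. For PerDKO these were Cyc1 (adjusted p = 0.0018), Uqcr10 (0.0084), Cox5a (0.015), Atp5a1 (0.021), Atp5b (0.022), Atp5mpl (0.025) and Dmac2 (0.046). For BMALKO they were Atp5h (adjusted p = 0.0018), Cyc1 (0.013), Uqcrh (0.024), Atp5a1 (0.025), Atp5o (0.042), Uqcrb (0.042), Cox7a2 (0.045) and Atp5g1 (0.049). With a letter left out, 1 to 8 members differed for PerDKO (1 without letter D) and 2 to 5 for BMALKO (2 without letter C or D), and none held every time.

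A period of 16 h was also tested in PerDKO livers. By JTK_CYCLE, 7 of 44 members were called for that period in PerDKO livers, against 4.73% of all genes. An unadjusted p below 0.05 was found in 16 members and in 1154 of all 9258 genes. The 7 called members were Sdhb, Cyc1, Cox5a, Atp5a1, Atp5b, Atp5c1 and Atp5g3, with folds of 1.17 to 1.27 and fitted peaks between 7.35 and 8.50 h. Cyc1 had the smallest q, 0.029, and its means were 506 ± 39 CPM at CT8, 522 ± 16 at CT24 and 528 ± 24 at CT40, with 401 ± 44 at CT16 and 471 ± 56 at CT32 between them (SD, n = 3 at CT8 and 4 at the others). Atp5a1 (q = 0.047) stood at 1158 ± 46 CPM at CT8, 1162 ± 48 at CT24 and 1214 ± 53 at CT40, with 904 ± 106 at CT16 and 1070 ± 58 at CT32. In both genes the mean at CT32 lay above that at CT16. All 7 genes also had a drift call in PerDKO livers, and with the linear trend removed 4 members were called. Without letter D the count was 0, without letter A 1, and without letter B 3. The count over all genes also fell under each of these settings, as given in the closing section.

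Levels over the whole 48 h differed between genotypes in most members, as they did in most genes. In PerDKO livers 34 of the 43 members differed from WT by edgeR's test, 15 as higher and 19 as lower, where 70.3% of all genes were called, 35.6% as higher and 34.7% as lower. In BMALKO livers 38 differed, 25 as higher and 13 as lower, where 76.4% of all genes were called, 37.1% as higher and 39.3% as lower. The median log2 fold change of the members was -0.06 in PerDKO and 0.16 in BMALKO livers, against 0.01 and -0.01 over all genes. Past 1.5-fold in either direction there were 7 of 43 members in PerDKO livers and 8 of 43 in BMALKO livers. Of all 8801 genes there were 1087 and 2033. The median absolute log2 fold change was 0.22 in members and 0.24 in all genes in PerDKO, and 0.30 in both in BMALKO livers. With upper-quartile scaling, which shifted the median of all genes in PerDKO by 0.05, the PerDKO count was 17 higher and 16 lower. Both comparisons share the WT libraries. Differences between the tables of the genotypes in annotation or preparation cannot be told apart from genotype here.

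All 4 genes of complex II were lower in PerDKO than in WT livers, with log2 fold changes between -0.31 and -0.13. In BMALKO livers Sdhb was higher (0.15 ± 0.03, adjusted p = 1.7e-05) and the other genes lower. Sdhd changed most in both. It had a median of 247 CPM in PerDKO livers (179 to 314) and 210 CPM in BMALKO livers (149 to 288), against 309 CPM in WT livers (214 to 390). Its log2 fold change was -0.31 ± 0.04 in PerDKO (adjusted p = 3.6e-12) and -0.55 ± 0.04 in BMALKO (adjusted p = 7.9e-27), and the libraries of both knockouts overlapped those of WT.

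In complex III, 2 genes were higher and 4 lower in PerDKO livers, and 6 were higher and 2 lower in BMALKO livers. Uqcrc2 was higher in both, with medians of 135 CPM in PerDKO (89.8 to 178) and 132 CPM in BMALKO (56.5 to 166), against 99.5 CPM in WT livers (76.8 to 132), at log2 fold changes of 0.47 ± 0.04 (adjusted p = 2.0e-19) and 0.37 ± 0.04 (adjusted p = 3.1e-14). Uqcr10 was lower in PerDKO at 490 CPM (348 to 625) and higher in BMALKO at 795 CPM (566 to 1038), against 612 CPM in WT livers (513 to 850), with log2 fold changes of -0.35 ± 0.03 and 0.36 ± 0.03. Uqcrc1 also stood on either side of WT, at -0.18 ± 0.04 in PerDKO and 0.30 ± 0.04 in BMALKO. Uqcrb was the most changed in BMALKO, at 1.33 ± 0.15 (adjusted p = 1.7e-14), but on medians of 5.74 CPM in BMALKO (1.09 to 16.4) and 2.64 CPM in WT livers (0.370 to 6.71). In the fit of PerDKO and WT alone, Uqcrq had medians of 1948 CPM in PerDKO (1619 to 2331) and 1714 CPM in WT livers (1309 to 2393), and was higher at 0.12 ± 0.03 (adjusted p = 0.0011).

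Complex IV held the largest change of any member. Cox7a2, the COX7A isoform of liver, had a median of 263 CPM in PerDKO (213 to 385) and 378 CPM in BMALKO (31.4 to 571), against 117 CPM in WT livers (85.0 to 176). No PerDKO library overlapped a WT library, and in BMALKO the libraries CT40 D and CT44 D, at 31.4 and 58.0 CPM, were the ones below the WT range. The log2 fold change was 1.12 ± 0.08 in PerDKO (adjusted p = 6.1e-28) and 1.54 ± 0.08 in BMALKO (adjusted p = 4.3e-40), and 1.57 in BMALKO without those 2 libraries. Its paralog Cox7a1 was low throughout, with medians of 16.6 CPM in PerDKO (5.19 to 32.8) and 4.08 CPM in BMALKO (1.48 to 47.8), against 10.2 CPM in WT livers (6.34 to 14.2), at 0.64 ± 0.11 and -1.09 ± 0.13. The BMALKO library at 47.8 CPM was CT24 A, which also held 55.3 CPM of Cox8b, against at most 1.11 CPM in any other BMALKO library, and without it the change of Cox7a1 was -1.27. Cox7a2l had medians of 92.1 CPM in PerDKO and 123 CPM in BMALKO, against 92.9 CPM in WT livers, and was called in BMALKO (0.46 ± 0.06) and not in PerDKO (-0.07 ± 0.06, adjusted p = 0.27).

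In the rest of complex IV, Cox6c was higher at 0.71 ± 0.04 in PerDKO and 0.74 ± 0.04 in BMALKO, and Cox7b at 0.42 ± 0.09 and 0.71 ± 0.09. Cox7b too was low in BMALKO CT40 D and CT44 D, at 14.1 and 13.8 CPM against a median of 364 CPM in the other BMALKO libraries, and without them its change in BMALKO was 0.75. Cox4i1 had medians of 1504 CPM in PerDKO and 1603 CPM in BMALKO, against 1155 CPM in WT livers, at 0.37 ± 0.03 and 0.46 ± 0.03. Its paralog Cox4i2 was not analysed here. Cox6a1, the COX6A isoform of liver, moved by -0.08 ± 0.02 in PerDKO and 0.11 ± 0.02 in BMALKO, and Cox6b1 by -0.07 ± 0.03 and, without a call, 0.04 ± 0.03 (adjusted p = 0.20). Cox8a was lower in both, at -0.17 ± 0.04 and -0.30 ± 0.04, and Cox5b was called in neither. Ndufa4, a subunit now counted to complex IV that the rule did not take, had medians of 195 CPM in PerDKO and 173 CPM in BMALKO, against 158 CPM in WT livers.

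**Figure D4:**
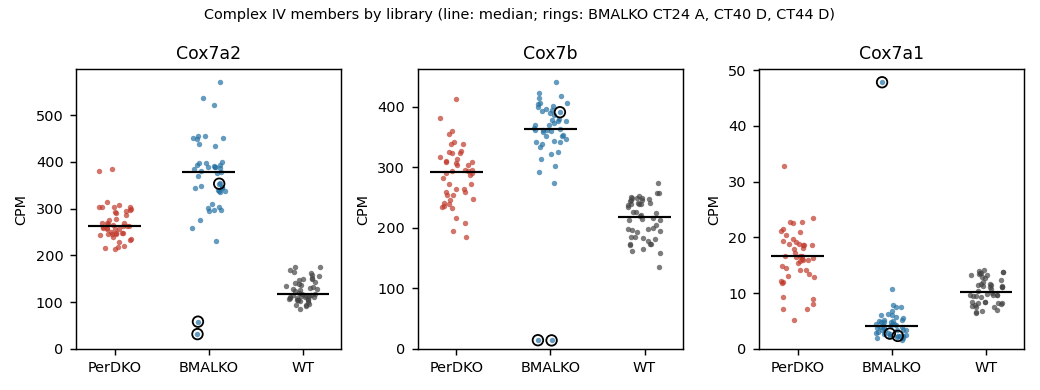
CPM (y axis) of Cox7a2, Cox7b and Cox7a1 in every library of PerDKO, BMALKO and WT livers, with a line at the median. Rings mark the BMALKO libraries CT24 A, CT40 D and CT44 D: the last pair has the lowest Cox7a2 and Cox7b values of all, and CT24 A the highest Cox7a1 value, 47.8 CPM.

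In ATP synthase, 7 genes were higher and 7 lower in PerDKO livers, and 10 were higher and 6 lower in BMALKO livers. In the head, Atp5a1 was higher at 0.24 ± 0.02 in PerDKO and 0.40 ± 0.02 in BMALKO, and Atp5c1 at 0.29 ± 0.03 and 0.44 ± 0.03. Atp5b was higher in BMALKO (0.46 ± 0.03) and not called in PerDKO (0.05 ± 0.03, adjusted p = 0.075). Atp5d stood at -0.12 ± 0.03 in PerDKO and 0.30 ± 0.03 in BMALKO, and Atp5e was lower in both, at -0.64 ± 0.05 and -0.19 ± 0.05.

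Of the ring genes, Atp5g3 was lower in both. It had a median of 1327 CPM in PerDKO (958 to 1614) and 1466 CPM in BMALKO (1283 to 1931), against 2048 CPM in WT livers (1660 to 2605), at log2 fold changes of -0.69 ± 0.03 (adjusted p = 1.5e-44) and -0.45 ± 0.03 (adjusted p = 1.8e-28). No PerDKO library reached the lowest WT library. Atp5g1 had medians of 382 CPM in PerDKO and 348 CPM in BMALKO, against 387 CPM in WT livers, and was called in BMALKO (-0.16 ± 0.04) and not in PerDKO (-0.06 ± 0.04, adjusted p = 0.18). Atp5g2, at medians of 4.32 CPM in PerDKO and 4.37 CPM in BMALKO, against 5.52 CPM in WT livers, was called in neither.

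Of the stator and small membrane genes, Atp5md had the largest change. Its product, also called DAPIT, is a small subunit of ATP synthase dimers. It had a median of 89.0 CPM in PerDKO (44.6 to 134) and 90.1 CPM in BMALKO (19.6 to 115), against 50.4 CPM in WT livers (24.5 to 73.2), at 0.86 ± 0.07 (adjusted p = 2.4e-20) and 0.85 ± 0.07 (adjusted p = 2.1e-20). Here again CT40 D and CT44 D were the low BMALKO libraries, at 23.2 and 19.6 CPM. Atp5h was higher at 0.52 ± 0.03 in PerDKO and 0.49 ± 0.03 in BMALKO, and Atp5l at 0.77 ± 0.06 and 0.76 ± 0.06. Atp5pb and Atp5o were lower, at -0.51 ± 0.03 and -0.47 ± 0.03 in PerDKO and at -0.23 ± 0.03 and -0.22 ± 0.03 in BMALKO. Atp5k stood at -0.11 ± 0.04 in PerDKO (adjusted p = 0.031) and 0.60 ± 0.04 in BMALKO (adjusted p = 6.3e-25).

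**Figure D5:**
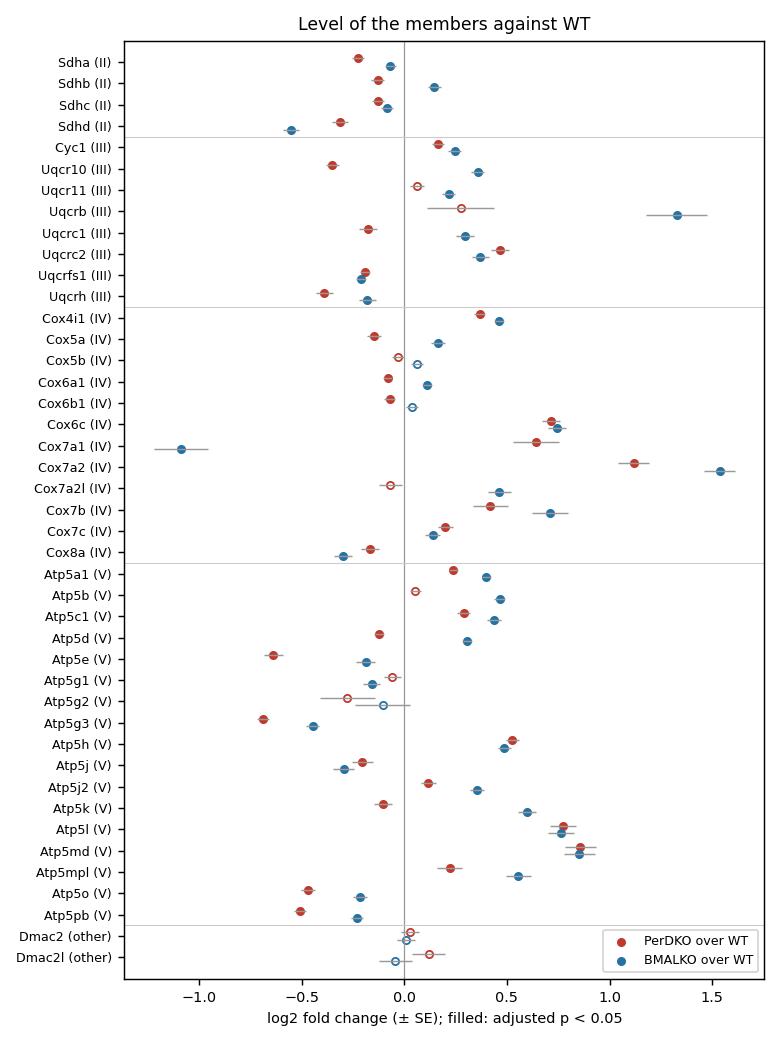
Log2 fold change (x axis, ± SE) of each tested member (rows, by complex) in PerDKO over WT and BMALKO over WT. Filled points passed edgeR's test at an adjusted p below 0.05, 34 in PerDKO and 38 in BMALKO. Cox7a2 lies furthest right, at 1.12 and 1.54, and Cox7a1 in BMALKO furthest left, at -1.09.

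Markers differed between genotypes as well. The 8 macrophage genes summed to a median of 436 CPM in PerDKO (275 to 1226) and 140 CPM in BMALKO (69.9 to 248), against 397 CPM in WT livers (254 to 948), and Alas2 stood at 121 and 118 CPM, against 233 CPM in WT livers. The 5 cholangiocyte genes summed to medians of 117 CPM in PerDKO and 111 CPM in BMALKO, against 57.0 CPM in WT livers. For the 6 stellate cell and fibroblast genes the medians were 154 and 94.1 CPM, against 91.1 CPM in WT livers. Those of the 8 endothelial genes were 148 and 122 CPM, against 150 CPM in WT livers. The hepatocyte sum was lower in BMALKO than in WT livers, as given above. The part of these differences in the members' levels was not tested. Summed over its tested subunits, complex IV stood at 6872 ± 622 CPM in PerDKO and 7552 ± 493 CPM in BMALKO, against 6241 ± 430 CPM in WT livers (SD, n = 46, 46 and 48). Complex II stood at 1705 ± 189 and 1856 ± 104 CPM, against 1919 ± 147 CPM in WT livers, complex III at 3063 ± 312 and 3632 ± 232 CPM, against 3302 ± 243 CPM, and complex V at 9188 ± 932 and 11096 ± 591 CPM, against 10153 ± 764 CPM. The ranges over libraries overlapped between genotypes for every complex.

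In the related lists, level calls are set against 70.3% of all genes in PerDKO (35.6% higher and 34.7% lower) and 76.4% in BMALKO (37.1% higher and 39.3% lower). Of 42 Nduf genes, 17 were higher and 20 lower in PerDKO livers, and 28 were higher and 4 lower in BMALKO livers. Of 66 mitochondrial ribosomal genes the counts were 20 higher and 34 lower in PerDKO, and 39 higher and 15 lower in BMALKO. Among the 12 regulators, Ppargc1b, the most changed of them in BMALKO, stood at -0.28 ± 0.07 in PerDKO and -2.39 ± 0.09 in BMALKO (adjusted p = 5.4e-51), and Nrf1 was lower at -0.14 ± 0.06 and -0.41 ± 0.07.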

How the data were processed

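Liver RNA of 140 mice (46 PerDKO, 46 BMALKO, 48 WT) was sequenced by MARS-seq, which counts 3′ ends of transcripts by molecular identifier and needs no scaling by gene length. The authors trimmed reads (cutadapt), aligned them to mm10 (STAR), counted them per RefSeq gene extended by 1000 bases at the 5′ and 100 bases at the 3′ end (HTSeq-count) within the UTAP pipeline, and deposited raw counts for all 3 genotypes. For WT and PerDKO they also deposited a signal, the counts divided by DESeq2 size factors. Versions are not given in the sources used here. Totals per library were 1442278 to 5643470 counts, and 0 columns of other samples were present.

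Groups came from the labels. Only genes without a 0 in any library were tested, which is the study's filter. Levels are CPM scaled by TMM. Rhythms were tested with JTK_CYCLE (q below 0.2). Drift, differences and levels came from 1 edgeR quasi-likelihood fit of the 140 libraries, with genotype means, time per 24 h, and 24-hour and 16-hour terms, at a Benjamini-Hochberg adjusted p below 0.05. Nothing in the labels says more of the replicates than a letter, so p-values measure the spread between these samples. Tools were R 4.3.3, edgeR 4.0.16, DESeq2 1.42.0, Python 3.11.15 (with pandas 2.3.3, Matplotlib 3.10.9, SciPy 1.17.1, NumPy 2.4.6), and the tests were tested on simulated data. The BMALKO table uses newer symbols: 425 pairs were matched, 5 of them members, and 10904 genes stood in all 3 tables. Uqcrq had no row in it after matching. Whether its gene models differ from those of the other tables was not tested. Of 204 pairs of libraries checked for duplicates, the lowest chi-square per degree of freedom was 3.25.

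Members and lists were chosen with earlier results of these data known. Genes named with values per library are, in each complex, the 2 members with the smallest p of WT rhythm and of drift in each genotype, the largest called change of level, Cyc1 and the paralog sets. Alternatives were other scalings, DESeq2, another filter, harmonic regression, a stricter q, letters, time points and libraries left out, no rhythm terms, and the letter as a block. The 5 settings that drop libraries standing apart or fit PerDKO and WT alone were chosen after seeing the data.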

Additional observations from a re-analysis of the deposited data

Results flagged for a closer look

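In 34 time points of named genes, 2 had a library far from the other 3, by the gap to the nearest library over the whole range (Dixon's test at the 95% level), where chance gives about 1 in 20. Sdhd in WT livers at CT20 had a gap over range of 0.856, with letter B at 271 CPM and the others at 373 to 390 CPM. Cox5a in WT livers at CT20 had 0.893, with letter D at 761 CPM and the others at 796 to 800 CPM.

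Effects that differed between genotypes by edgeR's quasi-likelihood test included the drift of 22 members between PerDKO and WT livers. The 24-hour rhythm differed in 7 members between PerDKO and WT livers and in 8 members between BMALKO and WT livers. The called shares of members were 51.2%, 16.3% and 18.6% in that order, against 14.8%, 28.0% and 22.3% of all genes. Of the genes named for drift, the PerDKO slope exceeded that of WT by 0.37 in Sdhb, 0.37 in Uqcr10, 0.30 in Cox6b1 and 0.27 in Atp5d, in log2 per 24 h.

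Cox8b, outside the tested genes, stood at 55.3 CPM in the BMALKO library CT24 A, and at most at 1.11 CPM in the other BMALKO libraries.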

How the results depend on the processing

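No called value turned its direction under any alternative run. Over the alternatives, called members were 16 to 29 for PerDKO drift, 17 to 24 for the PerDKO drift difference, 32 to 36 and 37 to 39 for PerDKO and BMALKO levels, and 0 for BMALKO drift and its difference. WT drift gave 0 without CT0, 0 without CT44, 0 without the WT libraries CT44 A and CT44 C, 0 with no rhythm terms, 2 for the second day minus the first, and 0 to 3 with a letter left out. WT rhythm gave 7 members at q under 0.05 and 6 to 9 with a letter left out. The PerDKO 16-hour rhythm gave 11 by harmonic regression, 4 with the linear trend removed, 4 at q under 0.05 and 0 to 6 with a letter left out. The rhythm difference of PerDKO gave 4 with upper-quartile scaling, 4 without CT0 and 1 to 8 with a letter left out, and that of BMALKO gave 4 without CT0 and 2 to 5. PerDKO drift gave 16 to 26 with a letter left out. The causes were not tested. Same-letter libraries of different time points were little alike on average: their deviations had a mean r of 0.0056 in PerDKO, 0.017 in BMALKO and 0.020 in WT. Between letters the means were -0.0016, -0.0051 and -0.0066. Single same-letter pairs reached 0.586, 0.607 and 0.254 in the same order, so a mean cannot show that no libraries were paired. With the letter as a replicate block, counts were 25 for PerDKO drift, 1 for WT drift and 22 for the PerDKO drift difference. They were 34 and 38 for PerDKO and BMALKO levels, and 7 and 9 for their rhythm differences. The edgeR F-test of a rhythm was read at an adjusted p below 0.2, and its shares over all genes are not given here. For WT rhythm it gave 21 members with the block and 20 without, and for the PerDKO 16-hour rhythm 9 and 9. Over all genes, counts moved by over 1.5 times for the PerDKO 16-hour rhythm (438, against 99 with the trend removed, 67 at q under 0.05 and 29 to 174 with a letter left out), PerDKO drift (1796, against 954 without letter C), its difference to WT (1305, against 769 without B and 736 without D), WT drift (87, against 8 to 290), and the BMALKO rhythm difference (1959, against 1239 without C and 1265 without D). The PerDKO 24-hour rhythm had 8 genes, against 0 to 337, BMALKO drift had 2, against 0 to 4, and the BMALKO drift difference had 8, against 2 to 17. Members of few counts, such as Uqcrb, Atp5g2 and Dmac2l, are limited by depth.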
